A study of Mus musculus with 2 samples.

Results

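Splice junctions that fail the GT-AG rule and are absent from the gene annotation were examined in liver RNA of mouse embryos. Of the 1077149 records in the junction list, 662119 carried A=0 and C=0 in their name. The members, 5528 of all 1077149 records, were chosen by those 2 marks and by at least 10 reads in each of both replicates (R1 and R2 of at least 10). A and C are not explained in the list and were read here from the data. All 176210 records with A=1 matched an intron of the ENSEMBL 65 exon table, and no record with A=0 did. Among the introns with C=1 and A=1 whose sequence could be read, 5589 of 5589 began with GT and ended with AG. Of the 20 introns with C=0 and A=1 that could be read, 13 began with GC and ended with AG. Of the 387 members read inside 1 exon, 0 began with GT and ended with AG as placed. C=0 was therefore read as marking a gap, the stretch of genome a read skips, without GT and AG ends as the aligner placed it. Length, host gene, host level, neighbouring sequence and spread between replicates are described below without a test, since every value comes from reads that also chose the members.

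The series has 1 group of 2 libraries and no second condition. Both replicates are poly(A)+ RNA, with small RNAs removed, from liver at embryonic day 18, taken from wild-type C57BL/6J littermates of mixed sex, depleted of ribosomal RNA, with spike-in RNAs added and read as stranded pairs. The labels call them biological replicates, both pooled from males and females, and do not say how many embryos each holds. In these data Xist, the RNA of the inactive X chromosome, had 8758 annotated junction reads in replicate 1 and 1 in replicate 2, which goes against that label for replicate 2.

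Most introns begin with GT and end with AG, and the spliceosome also removes smaller sets that begin with GC or, through the minor spliceosome, with AT. A gap in an aligned read need not be an intron. Reverse transcriptase can leave its template at a short sequence and resume at a second copy of it, which joins the flanks of the repeat and drops what lies between. Reads of near-identical neighbouring genes can also be joined by the aligner from one copy to the other. The liver before birth makes large amounts of globin mRNA in red cell precursors and of plasma protein mRNA in hepatocytes. Which of these processes made a given record was not tested.

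The first sequences show gaps inside 1 exon, chosen among the members with most reads. All those printed have a repeat of 4 to 10 bases, and they are not a fair draw. Some gaps with more reads than the last ones printed had a shorter repeat or none. H19 chr7:149761684-149761793 (900 and 902 reads) had 2 bases, and Rpl17-ps10 chr7:79794117-79794157 (575 and 466 reads) had no repeat. Each line gives 15 bases, the gap and 15 bases, 5′ to 3′ on the gene's strand, and the capitals are the direct repeat, whose second copy lies at the other side of the gap. Positions are those of the junction on mm9. The letters come from GENCODE M21 transcripts with the same exon lengths.
H19 chr7:149762980-149763061: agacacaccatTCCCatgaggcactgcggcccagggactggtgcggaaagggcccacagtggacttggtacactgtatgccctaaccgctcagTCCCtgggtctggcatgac
Hbb-bt chr7:110961204-110961267: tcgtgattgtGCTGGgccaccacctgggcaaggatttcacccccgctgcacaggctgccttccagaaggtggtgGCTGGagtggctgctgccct
Hba-a1 chr11:32183705-32183765: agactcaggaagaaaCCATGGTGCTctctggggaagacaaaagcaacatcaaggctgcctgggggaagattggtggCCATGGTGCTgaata
Apoe chr7:20281802-20281886: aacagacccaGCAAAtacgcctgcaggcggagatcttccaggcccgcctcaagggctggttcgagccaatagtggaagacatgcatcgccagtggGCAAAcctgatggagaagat
Dlk1 chr12:110698063-110698128: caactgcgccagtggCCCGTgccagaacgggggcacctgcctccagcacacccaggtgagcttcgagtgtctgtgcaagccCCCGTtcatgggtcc
Uqcr10 chr11:4604189-4604230: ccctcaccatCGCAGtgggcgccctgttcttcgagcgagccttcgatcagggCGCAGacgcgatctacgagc
The alpha-globin repeat spans 10 bases with the start codon inside its first copy. The beta-globin, apolipoprotein E, Dlk1 and Uqcr10 repeats have 5 bases and the H19 repeat 4.

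A second set shows the edges of annotated introns that the list holds as C=0 records, with 12 bases of exon and 12 of intron at each edge and the first or last 2 bases of the intron in capitals.
Selenbp1 5′ edge: aagttgcacaagGCatgtcctctg
Selenbp1 3′ edge: taccttctccAGgtcattgaagcc
Slc25a3 5′ edge: tcgccatcttagGCaagtgagcgc
Slc25a3 3′ edge: tctcccccgcAGgaggatgttctc
Xpo7 5′ edge: cctctccatcggATatcctttaaa
Xpo7 3′ edge: ctttgtctttACatacagtagcgt
Cdca3 5′ edge: tcagtggtccagGCaagtgatggg
Cdca3 3′ edge: tctttcctccAGaccctcagtgct
Selenbp1, Slc25a3 and Cdca3 have GC-AG introns, and Xpo7 has an AT-AC intron of the minor class.

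The list held 125662357 junction reads in replicate 1 and 105325114 in replicate 2. Members took 811846 and 665012 of them, 0.639% of the total, and 58.4% of all reads on A=0, C=0 records, of which 508844 rest on 1 read. The hepatocyte markers Alb, Ahsg, Trf and Afp and the 4 adult globins were 8 of the 9 genes with the highest mean level, and H19 was the other. The muscle marker Myh1 had 0.00533 and 0.00634 RPKM (reads scaled to transcript length and library size), and the pancreas marker Ctrb1 0.0411 and 5.32. The muscle markers Acta1 (0.151 and 0.716) and Ckm (0.0386 and 0.327) were higher than Myh1. The pancreas markers Prss2 (0 and 0.691) and Cela2a (0.00851 and 1.28) were, like Ctrb1, higher in the second value. The mm9 gene table gives Xist 0.0362 RPKM as its first value and 27.0 as its second. That order is opposite to the junction counts, so only the mean of both RPKM values is used for host levels.

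Members fell into 7 classes by position, which do not overlap. In 815 members (14.7%) both ends were moved by the same few bases from an annotated intron, and these held 42.6% of member reads. A further 1740 (31.5%) lay within 20 nt of an annotated intron at both ends but with unequal shifts, and held 21.9% of reads. Gaps inside 1 exon numbered 590 (10.7%), gaps from one exon to another of the same gene 394 (7.13%), and gaps within a gene with an end outside exons 304 (5.50%). Gaps joining 2 genes numbered 996 (18.0%). The last 689 (12.5%) had an end outside every annotated gene of the junction strand, among them 249 with no annotated gene at either end on either strand.

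**Figure D1:**
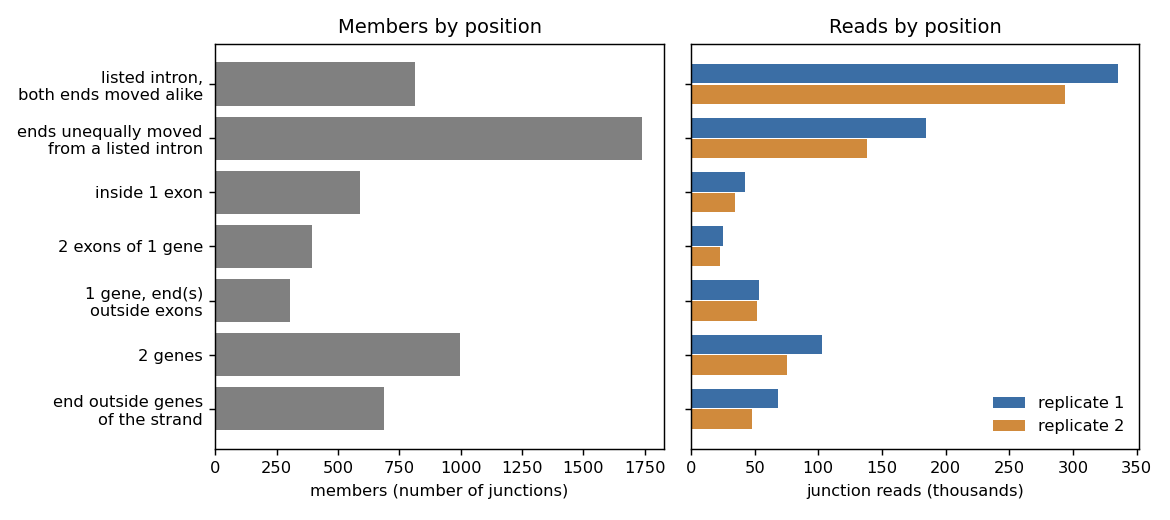
Number of members (left, junctions) and their reads (right, 1 bar for each replicate) in the 7 position classes. Displaced annotated introns are 815 of 5528 members and hold the most reads of any class in both replicates, while the 1740 members with unequal ends are the most numerous class.

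The displaced introns were annotated introns written a few bases off. Of the 815, 802 were moved to smaller coordinates and 13 to larger ones, and 754 were moved by 1 to 3 nt, most often by 2 nt (370) or 1 nt (277). The annotated position itself had no record in the list for 805 of them and a record of its own for 10. The ends could be read for 60: 52 began with GC and ended with AG, 4 were of the AT-AC kind, 1 began with GT and ended with AG, and the other 3 had further combinations. In 56 of the 60 the shift equalled the number of bases that the gap can slide towards smaller coordinates without changing the joined sequence. In Selenbp1, for example, the exon ends in the same 2 bases as the intron, and its member chr3:94741314-94741874 lay 2 nt below the annotated intron. Cdca3 shares 5 such bases and was moved by 5 nt. Only 59 of the 11538 unannotated C=1 junctions that pass the same read minimum were displaced in this way.

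At the median, reads on displaced introns were close to those of the median annotated junction of their gene. Over the 802 with a comparison, the median was 102% of the median annotated junction of the same gene in both replicates, with quartiles of 68.8% and 150% in replicate 1. The displaced introns had passed the read minimum in both replicates, and the annotated junctions they are set against were not held to it. That difference can raise the ratio, so the ratio does not tell whether these introns were spliced at an ordinary level. The genes were ordinary in level: the median host ranked 6375 of 37310 genes. Of the 815 members, 12 lay in the 100 highest genes. The C3 intron at chr17:57349745-57350992 (complement component C3) had 27589 and 26110 reads, 47.7% and 45.2% of the highest annotated junction of its gene. Itih2, a heavy chain of the inter-alpha-trypsin inhibitors, had 2 such introns, with 16681 and 15070 reads on chr2:10018876-10019527 and 6019 and 5563 on chr2:10028461-10031106. These 3 introns were among the 15 members with most reads, and so were those of Cyp2d26 (16600 and 13343 reads), the superoxide dismutase Sod1 (6848 and 4882), coagulation factor F12 (5455 and 4667), the succinate dehydrogenase subunit Sdhd (5606 and 4411), Selenbp1 (5660 and 4017) and the mitochondrial phosphate carrier Slc25a3 (4631 and 4794). In every one of these the 2 replicates lay within 2-fold after scaling. Below those 15, Blvrb, biliverdin reductase B, carried 3947 and 3164 reads on chr7:28233213-28244271.

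Members with unequal ends differed from the nearest annotated intron in gap length, mostly by 1 or a few bases. The gap was longer in 1335 and shorter in 405. It was 1 nt longer in 693, 2 nt longer in 380, 1 nt shorter in 300 and 3 nt longer in 139, and 93.3% lay within 4 nt of the annotated length. One end stood exactly at the annotated position in 428, and neither end in 1312. They carried few reads for each read of the annotated intron. Where that intron had reads (1686 members), the median was 0.0375% of them in replicate 1 and 0.0355% in replicate 2. Albumin introns held 241 of the 1740, transferrin (Trf) introns 119, alpha-fetoprotein (Afp) introns 104 and fetuin A (Ahsg) introns 73.

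To see how these records followed splicing itself, all A=0, C=0 records with unequal ends and a length within 4 nt of the annotated intron were summed, whatever their count, for the 120 annotated introns with at least 100000 reads in both replicates together. Every one of the 120 had such records. Their reads were 0.205% of those of the annotated intron at the median in replicate 1 (quartiles 0.156% and 0.282%) and 0.172% in replicate 2 (0.122% and 0.231%). The lowest share in replicate 1 was 0.0300%, at Afp chr5:90926356-90927290, with 79 against 263209 reads. The highest was 1.31%, at Alb chr5:90904363-90905485, with 13315 against 1017702 reads in replicate 1 and 9765 against 780165 in replicate 2, or 1.25%. It was the only intron above 0.5%. Across the 120 introns the summed reads rose with the annotated reads (Pearson r = 0.92 of log10 values, Spearman rho = 0.89). The introns come from 31 genes and the same 2 libraries, so this correlation is a description. The shares themselves were alike in order in the 2 replicates (Spearman rho = 0.95). C=1 records near the same introns summed to 0.0206% in replicate 1, against 0.257% for the C=0 records. C=1 gaps are held to GT-AG, so fewer positions near an intron can carry one, and the 2 sums are not a like comparison. The H19 intron chr7:149762653-149762733 alone had 5157 of the C=1 reads.

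**Figure D2:**
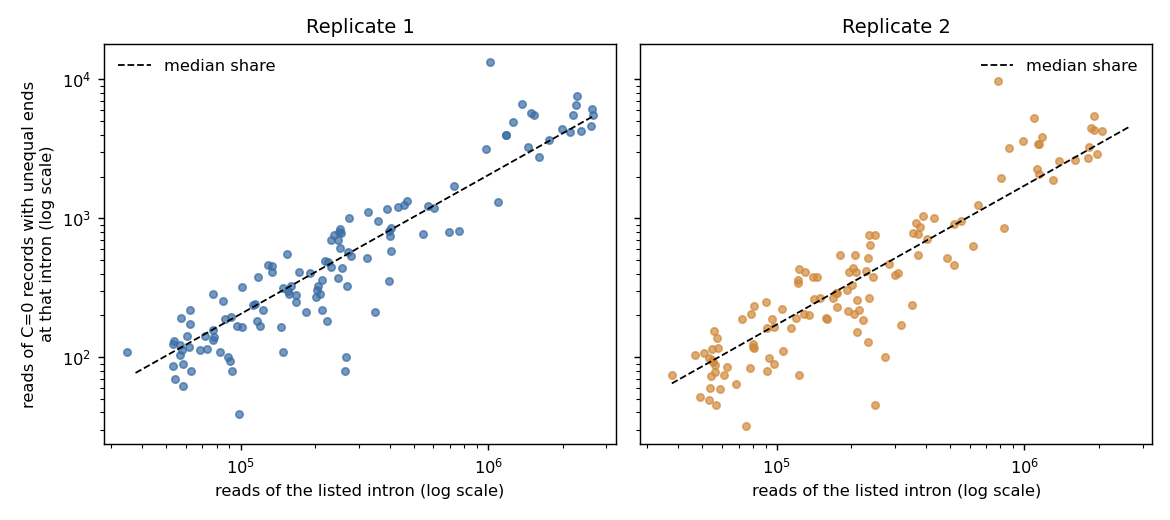
Reads of C=0 records with unequal ends at an annotated intron against reads of that intron, for the 120 introns with at least 100000 reads, on log axes, in replicate 1 (left) and replicate 2 (right). The dashed line is the median share, 0.205% and 0.172%, and the point far above it in both panels is the albumin intron at 1.31% and 1.25%.

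One member, chr5:90904368-90905489, held 12005 of those 13315 reads in replicate 1 and 8906 of 9765 in replicate 2. It was 1 nt shorter than the annotated intron and was moved by 5 nt at its start and 4 nt at its end. Apoh, apolipoprotein H, had a member that was larger still relative to its intron. On chr11:108258712-108266125 it carried 9731 and 8836 reads, beside 37582 and 31930 on the annotated intron, from which its ends lay 2 nt and 1 nt away. Of the 1686, 307 exceeded 1% of their annotated intron and 75 exceeded 10%. Rpl5, a ribosomal protein of the large subunit, had 1276 and 1170 reads on chr5:108333911-108336207 against 558 and 434 on the annotated intron beside it. In another 54 the annotated intron had no reads, as for Col1a2, a chain of type I collagen, with 130 and 165 reads.

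Gaps inside 1 exon were short. Their median length was 74 nt (quartiles 49 and 117), and 65.8% were under 100 nt, against a median of 255 nt and 18.8% among the 531 unannotated C=1 junctions inside 1 exon. The shortest gap in the whole list was 31 nt. The sequence could be read for 387 of the 590, and none of the 387 could be placed as GT-AG on either strand by sliding it within its repeat, while 29 could be placed as GC-AG or AT-AC. All 387 stood at the smallest of their equivalent coordinates, so where within the repeat the join lies cannot be told from the coordinates. Of the C=1 junctions inside 1 exon, 384 of 384 read were GT-AG, and 135 stood at the smallest coordinate.

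The median direct repeat at the 2 sides was 5 nt in members against 2 nt in the 384 C=1 junctions, while the means were 4.94 and 4.87 nt, with 7.03% of C=1 junctions at 12 nt or more. A repeat of 3 nt or more was present in 290 of 387 members (74.9%) and in 45.3% of C=1 junctions, and one of 5 nt or more in 194 (50.1%) and in 14.1%. No shared base was found in 26 members (6.72%). H19 gave 70 of the 387 members read (median repeat 3 nt), Cacfd1 28 (5.5 nt) and Igf2 24 (3 nt). Albumin had 36 gaps inside 1 exon, Ahsg 24 and Hbb-bs 20, but these genes were not among those with most gaps read. The Hbb-bs gap with most reads had no sequence, so the repeat lengths cover these abundant hosts poorly. The median repeat was 4 nt for members with up to 40 reads in both replicates together, 5 nt for those with 41 to 80 and 5 nt above 80. C=1 gaps are held to GT-AG at their ends and members are barred from it, so the groups differ in what sequence they could have. Gap length was a multiple of 3 in 39.0% of the members read and in 43.5% of the C=1 junctions.

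**Figure D3:**
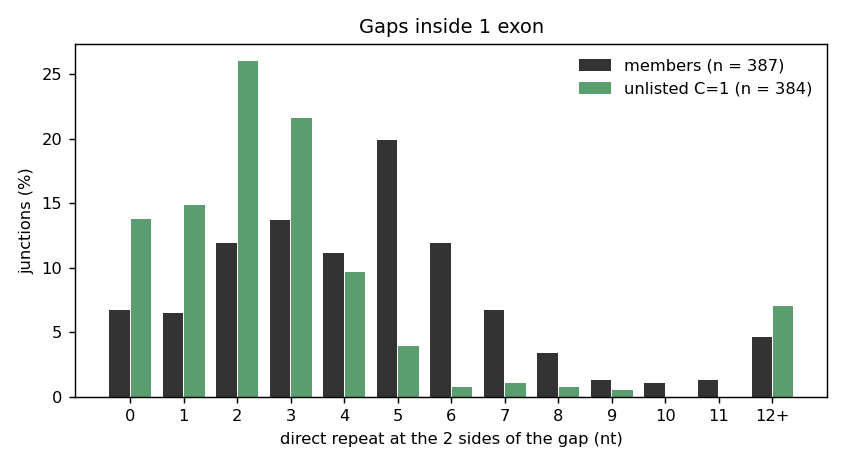
Length of the direct repeat at the 2 sides of gaps inside 1 exon (nt, horizontal) as percent of junctions (vertical), for 387 members and 384 unannotated C=1 junctions. Repeats of 5 nt or more make up 50.1% of members and 14.1% of C=1 junctions, and the last bar, 12 nt and longer, is higher for the C=1 junctions.

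H19, the imprinted long noncoding RNA of fetal tissues, was the gene with most gaps inside 1 exon, 70 of its 107 members. Its first sequence above had 1516 and 1374 reads, 0.676% and 0.589% of its highest annotated junction. A cluster near chr7:149761684-149761793 (900 and 902 reads) held several H19 gaps with almost the same ends, for example chr7:149761686-149761783 with 563 and 522 reads, so these members overlap and share sequence. Hbb-bs, an adult beta-globin gene, had the member of this class with most reads, 5186 and 3214 on the 64-nt gap chr7:110975213-110975276, or 0.196% and 0.177% of its highest annotated junction. The matching 64-nt gap in its neighbour Hbb-bt, printed above, had 1406 and 981. The 61-nt alpha-globin gap had 979 and 997 reads in Hba-a1 and 979 and 974 in Hba-a2, at chr11:32196522-32196582. Igf2, insulin-like growth factor 2, had 24 gaps inside 1 exon and Apoe 17. Dlk1, an imprinted Notch-family ligand, had 311 and 396 reads on its printed gap, and Uqcr10, a subunit of respiratory complex III, 221 and 157. Srsf1, a splicing factor, had 432 and 409 reads on chr11:87864334-87864410, a 77-nt gap with a 9-nt repeat. The pseudogene Rpl17-ps10 had a 41-nt gap without any repeat, with 575 and 466 reads. Cacfd1, a calcium channel flower domain protein, had 28 members, all inside 1 exon, although it ranked 2000 by level, and their median repeat was 5.5 nt. Xbp1 had 1 member, an 87-nt gap at chr11:5425492-5425578 with 10 and 10 reads. The short intron that IRE1 removes from Xbp1 mRNA in the unfolded protein response lies under the shortest gap in the list and could not appear in it.

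Gaps from one exon to another of the same gene also skipped short stretches of mRNA. For the 192 of 394 that could be set on a spliced transcript, the median was 103 nt of mRNA (quartiles 68.8 and 163), although on the genome the 394 spanned a median of 786.5 nt. Their median repeat was 4 nt against 2 nt for 1258 C=1 junctions, and 35.4% had 5 nt or more against 5.09%. Apoa1, the main protein of high-density lipoprotein, led with 2669 and 2740 reads on chr9:46037304-46037909, which skips 71 nt of its mRNA with a 2-nt repeat and reached 1.04% and 1.16% of its highest annotated junction. A gap of the same end that starts 2 nt later had 1221 and 1136. Use1, a SNARE protein, had 960 and 987 reads on chr8:73892018-73892742, at 74.8% and 88.5% of its highest. Hbb-bs skipped 65 nt with a 9-nt repeat on chr7:110976178-110976355, with 546 and 351 reads.

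Gaps between 2 genes were mostly gaps between tandem copies. Hba-a1 and Hba-a2, which code for the same alpha-globin chain, were joined by 458 members with 43790 and 32275 reads. Hbb-bs and Hbb-bt, the adult beta-globin pair, were joined by 348 with 40392 and 27158 reads. Together these are 806 of the 996, and gaps among Serpina1 copies (alpha-1-antitrypsin genes, with the neighbouring Gm8893) add 87. Lengths were narrow: the median alpha gap was 12819 nt with quartiles of 12816 and 12821, and the median beta gap 14011 nt with quartiles of 14008 and 14012. The introns of the alpha copies lie 12817 nt apart, and those of the beta copies 14006 to 14009 nt. At the beta copies the distance is 14009 nt at 3 of the 4 intron edges compared and 14006 nt at the other, so each gap was set against the distance at the edge nearest to its end. By this 259 alpha gaps (56.6%) and 231 beta gaps (66.4%) came within 5 nt of the copy spacing. An alpha gap 2 nt longer than the spacing was the most common, in 138, followed by 3 nt longer in 59 and 1 nt shorter in 33, and none was equal to it. Of the beta gaps, 131 were 2 nt longer, 44 were 3 nt longer and 31 were 1 nt shorter, and 2 were equal to it.

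**Figure D4:**
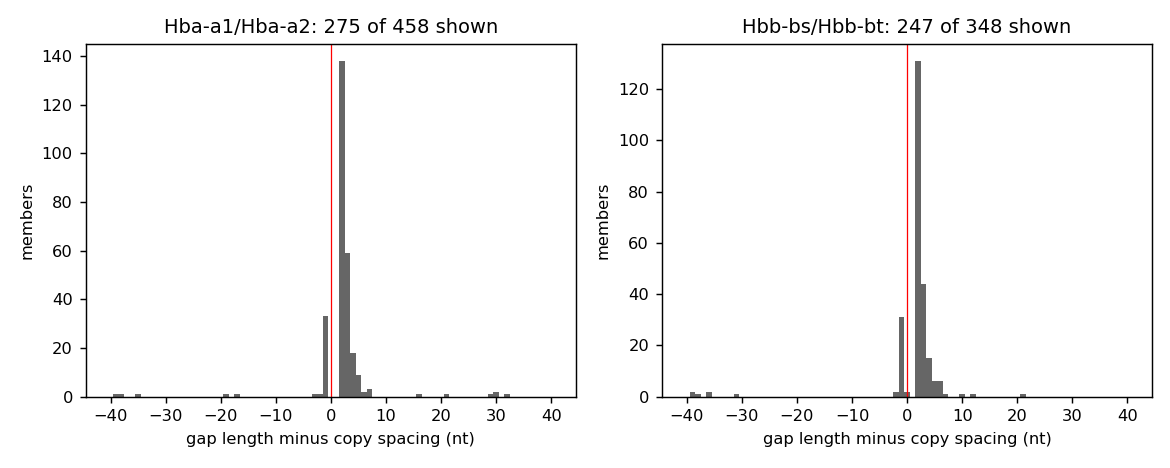
Gap length minus the distance between tandem copies at the nearest intron edge (nt, horizontal; the red line is 0) for members that join Hba-a1 to Hba-a2 (left) and Hbb-bs to Hbb-bt (right), as number of members. Within 40 nt of 0 lie 275 of 458 alpha and 247 of 348 beta members, and the highest bar in both panels is at 2 nt longer, with 138 and 131.

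Many globin records repeat one another. A cross-copy gap has a partner inside a copy when an A=0, C=0 record keeps one of its ends and has the other moved by exactly the copy spacing. Such a partner was in the list for 84 alpha and 63 beta members, and in 42 and 9 of these both replicates' counts agreed within 5%. A partner is as long as the gap minus the copy spacing, and no gap under 31 nt is in the list. The 259 alpha and 231 beta gaps within 5 nt of the spacing could therefore have no partner. For this reason 84 and 63 are not rates over all cross-copy gaps. The alpha gap chr11:32183803-32196742 had 1699 and 1552 reads, and its partner chr11:32183803-32183925 inside Hba-a1 had 1706 and 1563, while the same gap in Hba-a2, chr11:32196620-32196742, had 1701 and 1552. Of the 92 members inside Hba-a1, 88 had a match at the copy spacing in Hba-a2, and 56 of the 88 agreed in R1 within 5%. Whether such records count the same reads was not tested, and globin members are not independent of each other. The Serpina1 records also had equal or nearly equal counts: Gm8893 to Serpina1e and Serpina1a to Serpina1e had 1132 and 958 reads each, and Serpina1b to Serpina1e had 1124 and 952. Selenbp2 and Selenbp1 were joined by chr3:94501411-94741874, with 3216 and 2798 reads, which starts where the displaced Selenbp2 intron starts and ends where the displaced Selenbp1 intron ends. Other gene pairs were rarer. Albumin and its neighbour Afp were joined by 3 members, the largest with 1087 and 1201 reads on chr5:90901610-90935669. Ahsg was joined to St6gal1 over 342955 nt by a member with 2135 and 1624 reads.

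The member with most reads of all was a gap inside a gene with an end outside exons: Itih3, another inter-alpha-trypsin heavy chain, had 30031 and 32222 reads on chr14:31726382-31727837, 69.9% and 74.7% of its highest annotated junction. Its ends lay 2 nt and 1 nt from annotated exon edges, but those edges form no annotated intron in ENSEMBL 65, and no Itih3 intron of its 1456-nt length is in GENCODE M21. Rnf4, a ubiquitin ligase, had 943 and 811 reads on chr5:34691393-34692550, 69.0% and 66.9% of its highest. F11r, a tight junction protein, had 687 and 616, or 38.7% and 44.0%. For 16 of the 304 the length equalled an intron of the same gene in M21 that ENSEMBL 65 lacks. Peak1, a pseudokinase, stood apart with a 33-nt gap at chr9:56071575-56071607 that had 4919 and 4313 reads, while its highest annotated junction had 25 and 23. The gene ranked 11178 by level. It held 20 members, none of them near an annotated intron. Il31ra and Ttn had members of 322 and 72 and of 509 and 280 reads in genes at ranks 18557 and 21623. With Peak1, the Gm15541 member (101 and 144 reads) and the Zc3h12b to Msn member (43 and 40 reads), these 2 were the 5 highest ratios to the host, and the annotated junctions they are set against had few or no reads. The Zc3h12b to Msn member was set against Zc3h12b only, not against Msn.

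Among members with an end outside the genes of their strand, chr17:39983466-39984994 led with 6438 and 5194 reads, with no annotated gene on either strand. A gap with no annotated gene at either end on chr12:34505011-34647728 had 4585 and 2784. A pair ending at one site on chromosome 7 had nearly equal counts at both beta-globin copies: chr7:110976182-111082961, from Hbb-bs, had 3996 and 1154, and chr7:110962173-111082961, from Hbb-bt, had 3995 and 1148. Both were lower in replicate 2 beyond 2-fold. The strand opposite Zc3h7a, an RNA-binding zinc finger protein, held 25 members with 4275 and 3584 reads in all. Mitochondrial DNA held 13 members of 42 to 170 nt with 1023 and 842 reads. The gene table names that chromosome differently and gives none of its 37 genes a level above 0, so they were not placed in genes.

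As placed in the list, ends seldom met exon edges exactly. Outside the displaced and unequal classes, 152 of 2973 members (5.11%) had an end exactly at an exon edge and 8 had both, against 73.0% and 2452 of 9907 C=1 junctions. The median distance of the nearer end was 60 nt in members and 0 nt in C=1 junctions. All 387 members read inside 1 exon stood at their smallest equivalent coordinate, while C=1 gaps are held to GT-AG. The placing of gaps therefore bears on this contrast, and its part was not tested. With no class left out, 10.8% of members and 75.9% of C=1 junctions had an end exactly at an edge. Within 3 nt of an edge it was 43.8% of members.

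Across all members the median gap was 1167.5 nt with quartiles of 261 and 12819, against 2070.5 nt in unannotated C=1 junctions and 1254 nt in annotated ones with C=1. The upper quartile is the alpha-globin copy spacing plus 2 nt. Members under 100 nt made up 11.6%, against 3.61% and 6.19%. The shortest, 10 members of 31 nt, lay in Hba-a1 and Hba-a2 (3 each) and in Alb, H19, Igf2 and Ints13 (1 each), and the one in Hba-a1 with most reads had 43 and 66. In Hba-a1 the other two fall in the unequal class because the annotation lists a 4-nt intron there. The 3 longest were 647149 to 771788 nt, all with an end in Apoe and at most 24 and 23 reads.

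**Figure D5:**
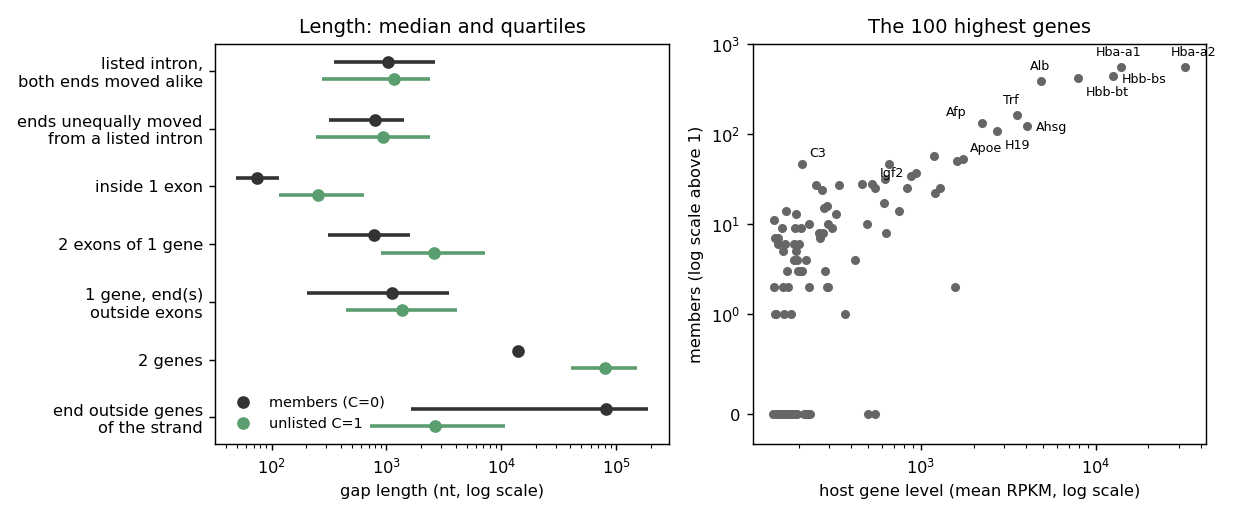
Left, median gap length (points) and quartiles (lines) in nt on a log axis for members and unannotated (unlisted) C=1 junctions in each position class. Right, number of members hosted by each of the 100 highest genes (log scale above 1) against mean RPKM on a log axis: the 4 adult globins and Alb have 390 to 556 members, and 74 of the 100 genes have at least 1.

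Member hosts were concentrated in the most abundant RNAs. The 10 highest genes hosted 38.6% of members, the 100 highest 52.5%, and the adult globins 21.1%. Among unannotated C=1 junctions the 100 highest genes hosted 5.45%, and among annotated C=1 junctions 0.427%. Counted by reads the picture was another: the 100 highest genes held 51.1% of member reads and 56.9% of the reads of annotated C=1 junctions, and the 10 highest genes 31.4% and 43.8%. Without the displaced introns, the 10 and 100 highest genes held 54.8% and 72.0% of member reads. Among unannotated C=1 junctions the adult globins alone held 82.4% of reads. Adult globins held 17.2% of member reads against 12.2% of annotated C=1 reads, and albumin 9.02% against 19.4%. Among the 100 highest genes, 74 had at least 1 member. The median was 276 members for the 10 highest and 4 for the other 90, with a Spearman rho of 0.66 between members and level over the 100 genes, which share the same libraries and depth. In all, 1824 genes hosted members and 1418 of these hosted 1 only.

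Per gene, Hba-a1 hosted 556 members, Hba-a2 552, Hbb-bs 446, Hbb-bt 419, Alb 390, Trf 162, Afp 132, Ahsg 124, H19 107 and Serpina1e 57, and a gap between 2 genes counts for both. They stood at ranks 2, 1, 3, 4, 5, 7, 9, 6, 8 and 15 by level. The mean RPKM of Hba-a1 rests on values of 27371 and 562, that of Hbb-bs on 25053 and 65.1 and that of Hbb-bt on 15842 and 0, while Hba-a2 had 32579 and 32486, so levels of single copies are uncertain. Alb had 5420 and 4295. Relative to the highest annotated junction of the host, the median member with a host had 0.0422% of its reads, and the lowest, 3 in Alb, 1 from Alb to Afp and 1 from Hba-a1 to Hba-a2, had 10 and 10 reads.

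By role, oxygen transport came first. Shares of all members are given beside the share of the 11538 unannotated C=1 junctions in the same genes, and the lists differ in number of genes and in level. The 4 adult globin genes hosted 1167 members (21.1%, against 0.815%), of which 807 were gaps between genes, and the embryonic globins 1 (0.0181%, against 0.0780%). Of the blood-borne carrier proteins, the 4 genes of the albumin family hosted 535 (9.68%, against 0.607%), 358 of them with unequal ends, and 9 of 12 transport and iron genes hosted 384 (6.95%, against 0.607%). These 3 lists had the widest gaps in percentage points between the shares.

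Other secreted liver proteins had smaller shares. Serpins had 148 members in 8 of 34 genes (2.68%, against 1.53%), and fibrinogen and coagulation genes 138 in 10 of 14 (2.50%, against 0.494%). Apolipoproteins had 125 in 6 of 12 genes (2.26%, against 0.381%) and inter-alpha-trypsin genes 35 in 3 of 4 (0.633%, against 0.321%). Complement genes had 52 in 5 of 14, and their share of 0.941% was close to the 0.971% among C=1 junctions. The 4 imprinted genes in the table hosted 138 (2.50%, against 0.364%), of which 95 lay inside 1 exon. Cytosolic ribosomal protein genes hosted 66 in 43 of 294 genes (1.19%, against 0.537%), and cytoskeleton and elongation genes 37 in 8 of 10 (0.669%, against 0.0520%). Erythroid genes other than globins had 20 in 7 of 12 genes (0.362%, against 0.312%) and neutrophil genes 18 in 5 of 7 (0.326%, against 0.113%). The 52 collagen genes had 6 members in 6 genes (0.109%, against 0.104%). Immunoglobulin and B cell genes had 3 members in 3 of 112 genes (0.0543%, against 0.113%). One joined Ighj1 to Ighd1-1 with 26 and 12 reads, another Ighj4 to Ighd1-1 with 13 and 14, and the last, with 11 and 10, had 1 end in Ighd1-1. S100a9, a neutrophil calcium-binding protein, had 168 and 148 reads on chr3:90496856-90499054, against 117727 and 122203 on the annotated intron, and Lyz2, the lysozyme of macrophages and neutrophils, 71 and 75 reads on a gap between 2 exons.

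Plasma protein genes also held the following members with unequal ends. In Alb these were chr5:90891865-90893014 with 2749 and 2242 reads and chr5:90894992-90896364 with 2299 and 1695. Trf had 372 and 304 reads on chr9:103118275-103119694, and Afp 491 and 381 on chr5:90934112-90935544. The annotated introns beside them had 431463 and 380096 reads in Trf and 470393 and 388488 in Afp. Kng1, kininogen, had 506 and 429 reads on chr16:23074867-23077333, beside 51506 and 40650 on its annotated intron. Fgb, the fibrinogen beta chain, had 249 and 188 reads, and S100a8, the partner of S100a9, 81 and 89.

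Displaced introns were found in several lists below the members already named. Coagulation factor F5 had 351 and 238 reads on one, the large-subunit ribosomal protein Rpl29 551 and 647, and Col6a2, a chain of type VI collagen, 61 and 92. Other leading members were of mixed classes. Actg1, gamma actin, had a 145-nt gap inside 1 exon with 276 and 292 reads, and Tuba1b, a tubulin, an end outside genes with 140 and 135. The translation factor Eef1a1 had a displaced intron with 119 and 149 reads, although its annotated position also had 51040 and 44487. Car2, carbonic anhydrase 2, had 67 and 87 reads with unequal ends, and Col5a2, a chain of type V collagen, 49 and 78 on a gap with an end outside exons.

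Replicates differed more in members than in the list at large. After scaling to total junction reads, 428 members (7.74%) lay beyond 2-fold, against 3.36% of all 144334 junctions with at least 10 reads in each replicate, and 183 of the 428 were higher in replicate 2 and 245 lower. Among unannotated C=1 junctions with the same minimum the share was 7.92%. By class it was 2.82% in displaced introns, 7.24% with unequal ends, 6.44% inside 1 exon, 8.43% between genes and 14.9% with an end outside genes. The alpha-globin gap chr11:32184396-32197242 had 2241 reads in replicate 1 and 230 in replicate 2. Members with few reads vary more by counting alone, and the part of depth in these shares was not tested.

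At the read minimum, 393 members had a lower count of exactly 10, with a median total of 24, and 463 records with a lower count of 9 fell just outside, with a median total of 22. The first inside by position were a 61-nt gap without a host gene (10 and 11 reads), a gap of Cps1, the first enzyme of the urea cycle (18 and 10), and a displaced intron of Ankzf1 (10 and 16). The first outside, on chromosome 1, had 11 and 9, 16 and 9, and 17 and 9 reads.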

How the data were processed

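The authors deposited 1 junction list for both libraries on mm9, with whole read counts for each replicate (R1 and R2) and a score in a field laid out for an irreproducible discovery rate. No source used here names the program that made this list. Its placing rule bears on every end position, and how reads with several matches were counted is not stated. The authors' deposited mm9 exon and gene tables use ENSEMBL 65, and the gene table gives 2 RPKM values per gene. The deposited mm10 TPM values, transcript abundances per gene made by the authors, served only to rank genes in an alternative. Everything else was computed in Python 3.11.15 with pandas 2.3.3 and scipy 1.17.1.

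An end belonged to a gene or exon if the base beside the gap lay in it on the junction strand. The host of a gap was its gene, or the more abundant of several. Shifts up to 12 nt (equal) or 20 nt (unequal) tied a gap to an annotated intron. Ratios to host junctions use each replicate's own counts. No mm9 genome was used: letters came from GENCODE M21 transcripts whose exon lengths equal the mm9 table (69143 of 95495), and intron ends from transcripts that retain the intron, found by exact match of at least 12 exon bases on each side at the intron's length. No coordinate was converted. The position classes, the repeat count and the copy-spacing steps were tested on simulated cases with known answers. The matching of transcripts and the reading of intron ends were not tested in this way.

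The members and gene lists were chosen with earlier results of these data known. The rule for named members takes the 15 with most reads, the 10 hosts with most members, the 3 shortest and longest, the 3 leading members of each list, those at the read minimum and the 5 at each end of the ratio to the host, and the text prints most of these. Some members that the rule takes are not reported here. Genes named beyond these, for their class, sequence or level, were chosen after their values were seen. The list holds 125662357 and 105325114 junction reads, and alternatives to each choice are given in the closing section. With 2 libraries of 1 group no comparison was tested.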

Additional observations from a re-analysis of the deposited data

How the results depend on the processing

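Of 45 values under other settings, 21 stayed within the range set for them and 24 moved. With a minimum of 5 reads there were 9766 members and with 20 there were 3250. A minimum in 1 replicate alone gave 6890 to 8371. Shares were compared with the 95% binomial interval and medians with the matching order-statistic interval, which cover counting error only. The share in 1 gene (69.5%) was 71.6% at 20 reads, 70.9% at a score of 0.1 or less and 70.8% with strand ignored. It was 68.5% to 69.8% with a replicate left out. The share of all members inside 1 exon (13.2%, members near annotated introns included) was 14.6% at 5 reads, 11.8% at 20, and 14.04% to 14.18% with a replicate left out. The share in the 100 highest genes (52.5%) was 49.3% at 5 reads, 50.3% with mm10 TPM ranks, 49.3% to 51.5% with a replicate left out and 61.3% without displaced introns. The share in adult globins (21.1%) was 17.2% at 5 reads, 22.4% at 20, 18.6% to 19.3% with a replicate left out and 7.94% without gaps between genes. Leaving out displaced introns or gaps between genes was chosen after seeing the data. The median ratio to the host (0.0422%) was 0.0373% at 5 reads, 0.0658% at 20 and 0.0390% to 0.0494% with a replicate left out. The median length stayed between 1126 and 1188 nt with a replicate left out. An end at an exon edge was found in 10.8% exactly, 43.8% within 3 nt and 58.1% within 10 nt. The cause of these shifts was not tested beyond the counts each setting admits. The number beyond 2-fold was 459 with scaling on the median ratio, and, added after seeing the data, tighter windows gave 806 displaced introns (up to 5 nt) and 1506 with unequal ends (within 10 nt). No paired analysis was possible because the 2 replicates form 1 group. Gaps with fewer than 10 reads in either library were not described.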
